A study of Homo sapiens with 12 samples.

Results

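The genes described here are 41 genes of DNA replication and of the G1/S step of the cell cycle, of the 60623 genes in the count table. They were taken by name from a list of replication licensing, fork and nucleotide supply genes, and no rule on their values was used. The list was chosen with earlier results of these data known. All 41 were found in the table by identifier and all 41 had enough counts to be among the 23684 genes tested. RNA was sequenced from 2 established human colon cancer cell lines, COLO320DM and SW480, to look for expression that could contribute to proliferation. Each line received 10 µg of the HKDC1 expression plasmid pCMV6-HKDC1, or of the empty vector pCMV6-Entry, with Lipofectamine 2000 for 24 h. Each of the 4 groups (COLO320DM with pCMV6-Entry, COLO320DM with pCMV6-HKDC1, SW480 with pCMV6-Entry, SW480 with pCMV6-HKDC1) had 3 libraries, numbered 1 to 3. HKDC1 is a member of the hexokinase family, and the viral CMV promoter of the plasmid drives it independently of the cell's own HKDC1 promoter. All 12 libraries are bulk RNA from cells given a plasmid and Lipofectamine 2000, and no step that selects the transfected cells is described. Whether replicates 1 to 3 were grown apart is not in the labels, so a p-value here speaks only of the spread among these libraries, which may be technical.

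Replication is prepared in G1, when the origin recognition complex (ORC), CDC6 and CDT1 load the ring-shaped MCM2 to MCM7 helicase onto DNA. At the start of S phase, CDC45 and the GINS complex join the ring with the help of MCM10 and switch the helicase on. Polymerase α with its primase starts each strand, polymerases δ and ε extend it, PCNA is the sliding clamp that holds them, replication factor C (RFC) loads the clamp, and FEN1, DNA2 and LIG1 finish the lagging strand. Ribonucleotide reductase, thymidylate synthase and thymidine kinase supply the nucleotides. E2F transcription factors are released when RB1 is phosphorylated, a step in which cyclin E with CDK2 takes part. They are known to activate many of these genes together, so the mRNAs of these genes are widely read as markers of proliferating cells.

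Sequence that the genes share was read from RefSeq promoters (250 bases before to 50 bases after each start, GRCh38.p14), in which 34 of the 41 genes had an entry. The letters TTTNNCGC, a form of the E2F recognition sequence, were searched on both strands and stood in at least 1 promoter of 19 of the 34 genes (55.9%). They stood in 8.23% of the 27305 genes of the table and in 11.8% of the 13638 that were also tested here. The CCAAT box (CCAAT) stood in 20 of the 34 (58.8%, against 42.1% of the tested genes) and the GC box (GGGCGG) in 26 (76.5%, against 71.7%). TTTGAA, the core of the cell cycle homology region known from G2/M promoters, stood in 2 of the 34 (5.88%, against 14.3%). A match describes the letters and does not show that a factor binds there. The most frequent E2F matches, read on the strand of the motif, were TTTCCCGC at 9 places, TTTGGCGC at 8 and TTTCGCGC at 6. Below are 200 bases before and 30 bases from a start, 5′ to 3′ on the strand of the gene. TTTNNCGC matches of either strand are in capitals. Where a gene had more than 1 start in RefSeq, a start with a match is shown. GINS1, GINS2, PCNA and UNG are shown because they were called with the HKDC1 plasmid in SW480 when the replicate number was a block, and MCM2, MCM6 and MCM7 because these subunits of 1 ring differed most between the lines.
GINS1 (chr20:25407473-25407702, plus strand): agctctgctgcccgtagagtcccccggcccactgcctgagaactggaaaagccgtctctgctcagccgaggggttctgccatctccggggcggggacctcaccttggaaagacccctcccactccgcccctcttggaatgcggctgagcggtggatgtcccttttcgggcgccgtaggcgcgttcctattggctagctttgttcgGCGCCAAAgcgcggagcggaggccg
GINS2 (chr16:85688925-85689154, minus strand): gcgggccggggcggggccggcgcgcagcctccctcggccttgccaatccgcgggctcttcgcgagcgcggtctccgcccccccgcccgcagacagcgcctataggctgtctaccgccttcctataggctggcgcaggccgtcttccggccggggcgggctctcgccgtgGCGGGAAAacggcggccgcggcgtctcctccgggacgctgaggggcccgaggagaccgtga
PCNA (chr20:5126593-5126822, minus strand): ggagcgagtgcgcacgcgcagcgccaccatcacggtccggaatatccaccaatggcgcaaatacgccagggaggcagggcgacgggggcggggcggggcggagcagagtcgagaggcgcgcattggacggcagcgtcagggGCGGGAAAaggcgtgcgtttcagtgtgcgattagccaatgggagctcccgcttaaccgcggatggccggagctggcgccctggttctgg
UNG (chr12:109097972-109098201, plus strand): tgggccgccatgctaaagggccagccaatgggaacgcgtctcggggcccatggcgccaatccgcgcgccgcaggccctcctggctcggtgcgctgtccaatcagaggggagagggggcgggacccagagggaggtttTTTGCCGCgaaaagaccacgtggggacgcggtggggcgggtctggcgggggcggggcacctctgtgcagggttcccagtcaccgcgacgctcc
MCM2 (chr3:127598211-127598440, plus strand): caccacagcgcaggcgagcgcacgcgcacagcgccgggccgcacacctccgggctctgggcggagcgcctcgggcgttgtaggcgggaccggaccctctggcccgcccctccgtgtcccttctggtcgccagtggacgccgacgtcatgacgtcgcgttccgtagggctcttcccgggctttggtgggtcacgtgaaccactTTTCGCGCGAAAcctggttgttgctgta
MCM6 (chr2:135876414-135876643, minus strand): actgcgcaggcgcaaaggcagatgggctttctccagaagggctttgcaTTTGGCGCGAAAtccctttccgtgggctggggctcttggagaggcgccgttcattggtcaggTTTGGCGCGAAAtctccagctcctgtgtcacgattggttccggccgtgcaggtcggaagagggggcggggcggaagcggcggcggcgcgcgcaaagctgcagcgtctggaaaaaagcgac
MCM7 (chr7:100101368-100101597, minus strand): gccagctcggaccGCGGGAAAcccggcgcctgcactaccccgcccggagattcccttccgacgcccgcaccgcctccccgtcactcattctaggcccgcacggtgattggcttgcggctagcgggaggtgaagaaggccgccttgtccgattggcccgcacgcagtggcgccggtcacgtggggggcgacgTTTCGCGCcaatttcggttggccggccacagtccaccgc
MCM6 held 4 matches, as the block TTTGGCGCGAAA at 2 places, in each of which a match of either strand overlaps. MCM2 held the related block TTTCGCGCGAAA from base 3 of the gene. GINS1, GINS2, PCNA and UNG held 1 match each in the stretch shown. The promoters at the other RefSeq starts of PCNA, UNG and MCM7 held none. Of the 6 genes called in SW480 with the block, 4 had a RefSeq promoter and all 4 held the letters, as did 15 of the 30 other members with an entry.

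Library totals ranged from 33790733 to 45451279 counts, and mitochondrial genes took 7.59% to 9.4% of the counts in COLO320DM and 6.32% to 7.4% in SW480. The 41 genes took 0.321% to 0.435% of all counts. HKDC1 checked the labels: it had 0 to 0.02485 CPM (counts scaled to a common library total) with empty vector and 6623 to 9858 with the plasmid in COLO320DM, and 34.08 to 35.5 against 12150 to 14230 in SW480. Of 12 markers of colon epithelium, 10 had a mean of at least 1 CPM in SW480 and 7 in COLO320DM, where the epithelial surface protein EPCAM had 1.93 CPM against 506 in SW480. Markers of fibroblasts summed to 17.3 to 59.7 CPM, of leukocytes to 5.9 to 47.0 CPM and of endothelium to at most 1.2 CPM in any library. Neuroendocrine markers summed to 28.9 to 40.1 CPM in COLO320DM and to 61.4 to 76.4 CPM in SW480, with ENO2 the highest in both. CHGB had a mean of at least 1 CPM in COLO320DM only and NCAM1 in SW480 only. Of the 8 listed, 5 were tested, and 3 were higher and 2 lower in SW480 with empty vector. Replicates 2 and 3 were closer to each other than to replicate 1 in every group, in the members as well, as described with the results. They were least close in the SW480 plasmid group, where the members' median log2 deviations from the line mean were −0.091 and 0.006. Some members share exon bases with a neighbour, and no source used here states that the counting used strand. TYMS shares 39.9% of its exon bases with ENOSF1, CCNE2 37.0% with INTS8, MCM2 23.6%, GINS4 21.0%, CDK2 14.5%, PRIM1 12.7% and GINS3 10.9% with genes without a symbol, and MCM7 8.94% with AP4M1. POLD1 shares 8.63% with a gene without a symbol, and over all neighbours the share was 47.5% for TYMS and 22.2% for PRIM1. The share of bases does not bound the error, which depends on the counts of the neighbour as well. Over all libraries CCNE2 had 4768 counts and INTS8 22193. PRIM1 had 30907, against 145942 for its neighbour without a symbol and 337947 for NACA, both on the strand of PRIM1. How far the values of these genes are affected was not tested.

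Levels differed widely among the 41 genes. All CPM below are scaled by TMM, and levels of different genes are compared per kb of exon. The exon length is that of all annotated exons of a gene merged, which can exceed that of the transcript expressed. Ranks and ratios per kb depend on it. With empty vector, the clamp PCNA was highest in both lines, at 111 ± 20.2 CPM per kb (SD, n = 3) in COLO320DM and 173 ± 64.2 in SW480. In COLO320DM it was followed by SLBP, which binds the stem-loop of histone mRNA, at 56.8 ± 3.86 CPM per kb and by RRM1, the large subunit of ribonucleotide reductase, at 53.1 ± 4.39. PCNA lay above SLBP by more than the SDs, whereas SLBP, RRM1 and the 2 genes below them in the order, MCM2 (52.8 ± 3.05) and MCM3 (49.5 ± 4.52), followed each other within their SDs. In SW480 PCNA and MCM7 (134 ± 27.9 CPM per kb) overlapped within their SDs, and MCM3 came next at 57.3 ± 12.8. The lowest levels in COLO320DM were those of FAM111B, a nuclear trypsin-like protease, at 0.45 ± 0.0387 CPM per kb, of cyclin E2 (CCNE2) at 2.29 ± 0.707 and of the transcription factor E2F2 at 2.63 ± 0.0598. In SW480 they were those of CCNE1 (2.15 ± 0.45), CCNE2 (2.2 ± 0.865) and the GINS subunit GINS3 (3.4 ± 0.602).

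The HKDC1 plasmid was then compared with empty vector in SW480. In the fit on the 4 group means, 39 of the 41 genes had a log2 fold change above 0, with a median of 0.128, against 49.8% of all genes tested and a median of 0.0. Without replicate 1 of the plasmid group, which takes a high library from 1 arm only, the count was 24, with a median of 0.008. None of the 41 passed the test, by edgeR, DESeq2 or limma-voom, and none had an unadjusted edgeR p under 0.05; of all genes tested 0.0127% were called by edgeR and 1.5% had an unadjusted p under 0.05. When the replicate number was added as a block, which compares same-numbered libraries, 6 genes were called and all 6 were higher with the plasmid (14.6% of the 41, against 0.76% of all genes called in either direction and 0.165% called higher). They were the helicase subunit MCM4, the GINS subunits GINS1 and GINS2, the clamp PCNA, the uracil-DNA glycosylase UNG and the protease FAM111B, all higher by 1.18- to 1.26-fold. With the block 22 of the 41 had an unadjusted p under 0.05, against 9.96% of all genes. The calls depend on the block: DESeq2 with a block called 5 of these 6, limma-voom with a block called 3, and leaving out the replicate 2 pair or the replicate 3 pair left none of the 41 called, while leaving out the replicate 1 pair gave 11, the 6 among them (against 2.23% of all genes called in either direction and 0.468% called higher).

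MCM4, a subunit of the MCM2 to MCM7 ring, had 348.9, 159.5 and 175.4 CPM in SW480 replicates 1, 2 and 3 with empty vector and 357.4, 209.3 and 235.4 CPM with the plasmid. Replicate 1 was high in both groups, so that the groups overlap, and in each same-numbered pair the plasmid library was the higher. The log2 fold change with the block was 0.28 (SE 0.06, adjusted p = 0.0138). The other 9 licensing genes (ORC1, ORC6, CDC6, CDT1, MCM2, MCM3, MCM5, MCM6 and MCM7) did not pass the test, with log2 fold changes with the block of 0.06 for CDT1 to 0.22 for ORC1.

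Of the 6 helicase activation genes, the 2 called are subunits of GINS, the complex that bridges CDC45 and the MCM ring. GINS1 had 66.4, 35.6 and 37.9 CPM with empty vector and 77.3, 43.9 and 47.4 with the plasmid, a log2 fold change with the block of 0.28 (SE 0.06, adjusted p = 0.0221). GINS2 had 69.1, 44.1 and 50.9 CPM and 73.1, 60.4 and 62.8 CPM, a log2 fold change of 0.28 (SE 0.07, adjusted p = 0.0282). In all 3 pairs both genes were higher with the plasmid, and for both, replicate 1 with empty vector exceeded replicates 2 and 3 with the plasmid. The other subunits, GINS3 (0.17, adjusted p = 0.447) and GINS4 (0.25, adjusted p = 0.15), and MCM10 (0.14, adjusted p = 0.449) did not pass, and CDC45 was at −0.01.

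Among the 11 fork genes, PCNA alone was called in that fit. It had 345.3, 179.6 and 201.2 CPM with empty vector and 373.3, 230.4 and 241.6 CPM with the plasmid. The plasmid library was the higher in every pair, with a log2 fold change with the block of 0.24 (SE 0.06, adjusted p = 0.0196). The polymerase subunits POLA1, POLD1 and POLE, the primase PRIM1, the clamp loader subunits RFC2, RFC3 and RFC4, FEN1, LIG1 and DNA2 had log2 fold changes of 0.05 to 0.16 and did not pass.

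UNG, which removes uracil from DNA, had 104.7, 53.4 and 60.4 CPM with empty vector and 106, 74.4 and 83 CPM with the plasmid. Its replicate 1 libraries were nearly equal and its replicates 2 and 3 were higher with the plasmid, which gave a log2 fold change with the block of 0.31 (SE 0.07, adjusted p = 0.0181). The 4 nucleotide supply genes RRM1, RRM2, TYMS and TK1 did not pass (0.02 to 0.13). FAM111B had 55.4, 21 and 25.4 CPM with empty vector and 59.1, 31.7 and 32 CPM with the plasmid, a log2 fold change with the block of 0.33 (SE 0.08, adjusted p = 0.0398). DESeq2 with a block and limma-voom with a block did not call it (adjusted p = 0.152 and 0.0709). CHAF1A and CHAF1B, subunits of chromatin assembly factor 1, and SLBP did not pass (0.13, 0.18 and 0.23). None of the 5 G1/S control genes passed: CCNE1 had a log2 fold change of 0.19, CCNE2 0.15, CDK2 0.08, E2F1 0.09 and E2F2 −0.01.

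**Figure D1:**
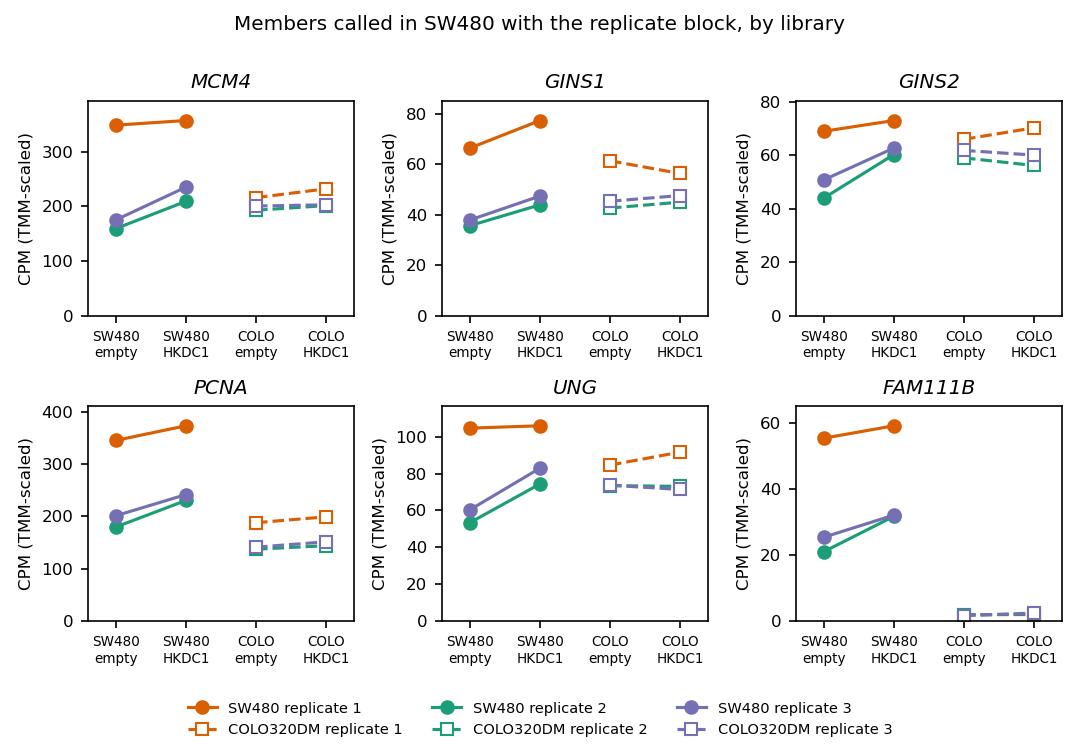
TMM-scaled CPM (vertical axes, from 0) of the 6 genes called in SW480 with the replicate block, in SW480 (filled circles) and COLO320DM (open squares), with a line joining same-numbered libraries. In SW480 every line rises from empty vector to plasmid, and replicate 1 lies above replicates 2 and 3 in both plasmid groups; in COLO320DM FAM111B is near 0 on this scale.

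No member had every plasmid library above every empty-vector library in SW480, against 2.16% of all genes. For 34 of the 41 this could not occur, because both replicate 1 libraries lay above the others, as did those of 27.1% of all genes. The 2 shares are therefore not alike and do not speak of the plasmid. Compared pair by pair, 20 of the 41 were higher with the plasmid in 3 of 3 pairs (14.0% of all genes) and none was lower in 3 of 3 (14.4% of all genes). Replicate pair 1 had a median log2 ratio of 0.053 over the 41 genes, with 27 higher. Pairs 2 and 3 had medians of 0.204 and 0.244, with 37 and 36 higher, and the median over all genes was 0.0 in each pair. The ratios of pairs 2 and 3 thus lay above those of pair 1 in the median.

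**Figure D2:**
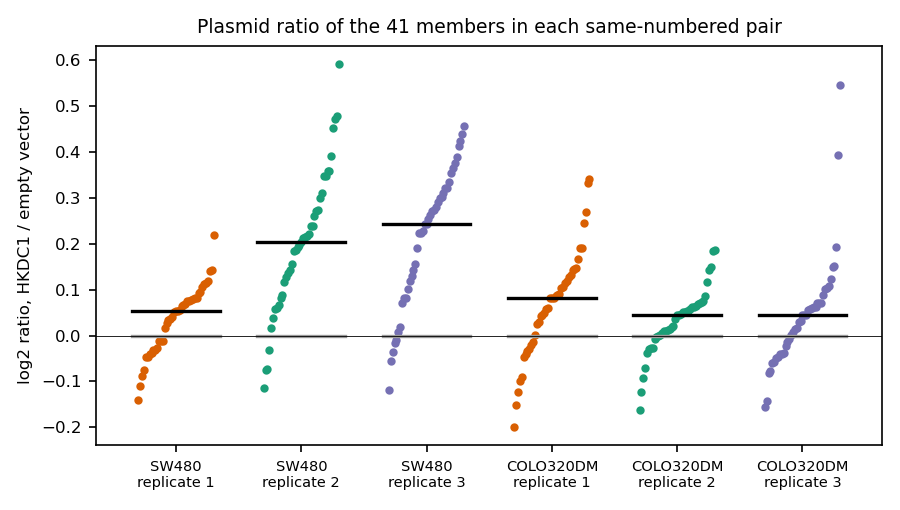
Log2 ratio of plasmid to empty vector, from TMM-scaled CPM plus 0.1, of the 41 genes (points, sorted) in each same-numbered pair of libraries; black bars are the medians of the 41 genes and grey bars those of all genes tested. The SW480 medians are 0.053, 0.204 and 0.244 and the COLO320DM medians 0.082, 0.044 and 0.044.

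The difference between replicate 1 and the other replicates was larger in the median than the plasmid difference and is given as a description. In SW480, 39 of the 41 genes were higher in the replicate 1 libraries than in replicates 2 and 3, with a median log2 difference of 0.384 (−0.072 for TK1 to 1.075 for FAM111B) against −0.017 over all genes. Both replicate 1 libraries lay above all 4 other libraries of the line for 34 of the 41 (27.1% of all genes). The exceptions were CDT1, MCM5, POLD1, RFC2, TYMS, TK1 and E2F1. In COLO320DM 33 of the 41 were higher in replicate 1, with a median of 0.167, and 28 lay above the others (20.5% of all genes). CDT1, the licensing factor, went the other way there: it had 54.4, 97.4 and 95.4 CPM with empty vector and 69, 98.2 and 95.5 CPM with the plasmid, the lowest values being those of replicate 1. A list of 30 mitosis and G2/M genes moved with the libraries as well: its median deviation from the mean of the line was 0.222, −0.197 and −0.124 in the SW480 empty-vector libraries and 0.287, −0.096 and −0.078 in the plasmid libraries. For the 41 genes these values were 0.258, −0.296 and −0.217, and 0.286, −0.091 and 0.006. The mitochondrial share was also higher in replicate 1 of both lines (8.9% and 9.4% against 7.59% to 7.8% in COLO320DM, 7.4% and 7.17% against 6.32% to 6.48% in SW480), and its part in the result was not tested. In bulk RNA, more cells in S phase and more of these transcripts per cell cannot be told apart.

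**Figure D3:**
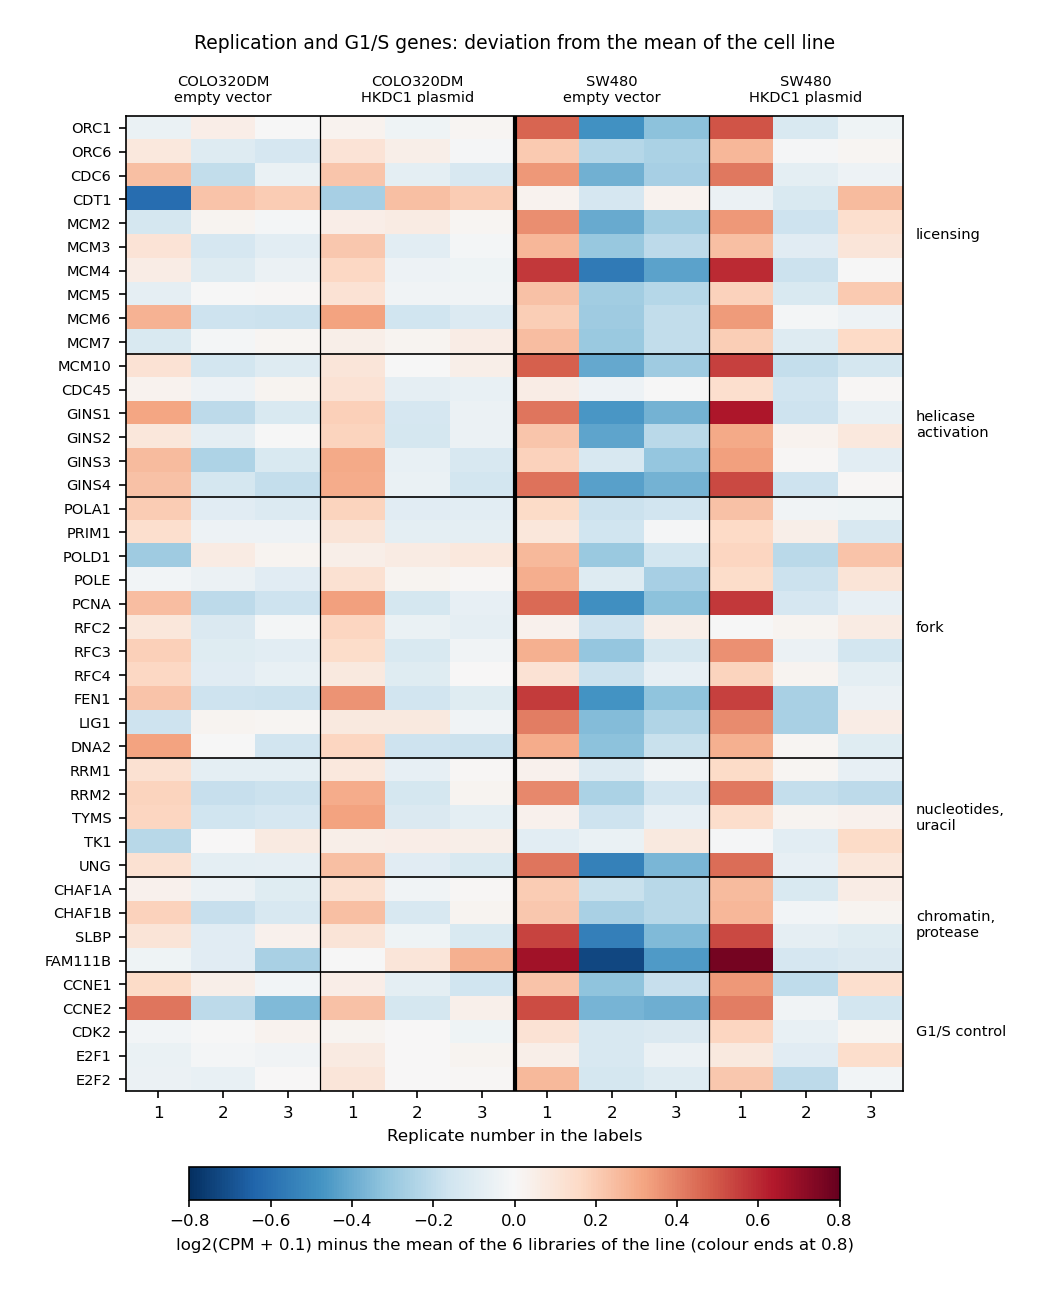
Deviation of log2(CPM + 0.1) from the mean of the 6 libraries of the line (colour) for each of the 41 genes (vertical axis, by role) in each library (horizontal axis, by line, plasmid and replicate). Replicate 1 is red in both SW480 groups for most genes, replicates 2 and 3 with empty vector are the bluest, and CDT1 is blue in replicate 1 of COLO320DM.

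The same comparison was made in COLO320DM. A log2 fold change above 0 was found for 30 of the 41, with a median of 0.065, against 47.3% of all genes and a median of −0.001. Without replicate 1 of the plasmid group, which takes a library from 1 arm only, the count was 13 and the median −0.021. Without replicate 1 of the empty-vector group they were 37 and 0.093. With the block, leaving out a whole pair gave counts of 31 to 32 and medians of 0.032 to 0.07. None passed the test in edgeR without or with the block, in DESeq2 or in limma-voom, against 0.00844% of all genes without and 0.076% with the block. None had an unadjusted edgeR p under 0.05 without the block (1.32% of all genes) and 1, RRM2, had one with it (5.46% of all genes). All 10 licensing genes and all 5 genes of nucleotide supply and uracil removal had values above 0, with medians of 0.07 and 0.088. In 5 genes every plasmid library lay above every empty-vector library (12.2%, against 3.52% of all genes): the helicase subunit MCM7, the catalytic subunit of polymerase ε (POLE), FAM111B, E2F1 and E2F2. The 28 genes with both replicate 1 libraries above the others could not meet this rule. In 19 genes the plasmid library was the higher in 3 of 3 pairs (13.3% of all genes), and in 3, PRIM1, DNA2 and CCNE1, it was the lower in 3 of 3 (13.8% of all genes).

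The 5 genes of smallest p with the block in COLO320DM do not pass after adjustment. RRM2, the small subunit of ribonucleotide reductase that limits its activity in S phase, had 140.7, 109.3 and 110.3 CPM with empty vector and 152.8, 112.9 and 126.1 CPM with the plasmid, a log2 fold change of 0.12 (SE 0.06, adjusted p = 0.911). POLD1, the catalytic subunit of polymerase δ, had 42.2, 54 and 52.3 CPM and 53.2, 54 and 54.6 CPM, a log2 fold change of 0.13 (SE 0.07, adjusted p = 0.946). In POLD1 a low value of replicate 1 with empty vector stands apart from 5 values close to each other. CDT1, whose values are given above, had a log2 fold change of 0.12 (SE 0.07, adjusted p = 0.946). FAM111B had 1.862, 1.787 and 1.574 CPM and 1.902, 2.043 and 2.344 CPM, with 0.26 (SE 0.16, adjusted p = 0.946), and the thymidine kinase TK1 had 53.2, 62.1 and 65.2 CPM and 64.1, 64.4 and 64.1 CPM, with 0.10 (SE 0.06, adjusted p = 0.946). The FAM111B groups did not overlap, at a level close to 2 CPM, while those of the other 4 overlapped.

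The difference between the plasmid effects in the lines was tested directly. It was above 0, that is larger in SW480, for 34 of the 41 genes, with a median log2 difference of 0.08, against 52.3% of all genes and a median of 0.011. That direction depended on single libraries: the count was 14 (median −0.022) without replicate 1 of the SW480 plasmid group and 16 (median −0.016) without replicate 2 of the SW480 empty-vector group. Each of these omissions takes a library from 1 arm only. With the block, leaving out a whole pair of either line gave counts of 30 to 36 and medians of 0.045 to 0.126. None of the 41 was called by edgeR without or with the block, DESeq2 or limma-voom (0.00844% and 0.0422% of all genes without and with the block). Without the block none had an unadjusted p under 0.05 (1.6% of all genes) and with it 9 did (7.6% of all genes), with a smallest adjusted p of 0.404. The 6 genes called in SW480 with the block are thus not shown to respond differently in COLO320DM. Without the replicate 1 pair of SW480, UNG was called for this difference in the fit with the block, where 0.575% of all genes were called.

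The lines were then compared with each other. With empty vector 23 of the 41 genes (56.1%) were called between SW480 and COLO320DM, 13 higher and 10 lower in SW480, against 71.6% of all genes tested, 37.3% higher and 34.3% lower. With the replicate number as a block shared by both lines, 30 were called (73.2%, against 76.3%). Between the 6 plasmid libraries, without a block, 21 were called (51.2%, against 70.8%). The median log2 difference of the 41 was 0.073, against 0.039 over all genes, so that higher and lower genes nearly balance. Of the 23 calls, 16 held in each of the 11 other settings tried, while CDC6, CDT1, PCNA, RFC3, DNA2, RRM2 and E2F2 kept their direction and lost theirs when single libraries were left out. Their highest adjusted p were then 0.0876 (CDC6, without SW480 replicate 1), 0.0828 (CDT1, without COLO320DM replicate 2), 0.203 (PCNA, without SW480 replicate 1), 0.0571 (RFC3, without COLO320DM replicate 1), 0.204 (DNA2, without COLO320DM replicate 1), 0.0936 (RRM2, without SW480 replicate 1) and 0.06 (E2F2, without SW480 replicate 1). The block added 7 calls, of ORC6, MCM3, MCM5, MCM10, GINS2, GINS4 and RRM1, whose values with the block are given with their roles. This block takes equal replicate numbers of both lines as matched, which the labels do not state and which was not checked. These added calls depend on it.

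Licensing genes differed in opposite directions within 1 complex. MCM7 stood at 190.7, 205.4 and 209.4 CPM in the COLO320DM libraries and at 725.6, 497.7 and 534.2 CPM in those of SW480, 2.9-fold higher with a log2 difference of 1.54 (SE 0.13, adjusted p = 2.6e-07). MCM6 had 82.2, 60.3 and 60.2 CPM and 215.1, 153.9 and 164 CPM, 2.63-fold higher with 1.40 (SE 0.18, adjusted p = 1.09e-05). MCM2 had 232.7, 260.2 and 253.9 CPM and 201.1, 117.3 and 128.1 CPM, 1.67-fold lower with -0.74 (SE 0.18, adjusted p = 0.00198). For these 3 subunits the libraries of the lines do not overlap. Here and below, the share of all genes without such overlap was not counted, and 71.6% of all genes were called between the lines. MCM3, at 199.2, 168.1 and 174.2 CPM and 262.4, 176.3 and 188.2 CPM, and MCM4 and MCM5 were not called without the block (0.17 to 0.28). With the block MCM3 was called higher in SW480, at 0.20 (SE 0.08, adjusted p = 0.0326), and MCM5 likewise, at 0.27 (SE 0.10, adjusted p = 0.0326), while MCM4 was not (adjusted p = 0.66). Because the subunits form a shared ring, their mRNA levels per kb are set side by side. The highest was 6.95 times the lowest in COLO320DM and 14.5 times in SW480, MCM5 being the lowest in both. These ratios and the shares that follow depend on the merged exon lengths (7268 bases for MCM5, 4715 for MCM2 and 4386 for MCM7). MCM7 made up 22.9% of the summed level of the 6 subunits per kb in COLO320DM and 43.5% in SW480, and MCM2 26.2% and 10.3%. With the HKDC1 plasmid these shares were 23% and 43.1% for MCM7 and 26.5% and 10.3% for MCM2. The loading factors CDC6 and CDT1 were called higher (0.57) and lower (−0.58) in SW480, and ORC1 and ORC6 were not called without the block. With it ORC6 was called lower, at -0.19 (SE 0.08, adjusted p = 0.0455).

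**Figure D4:**
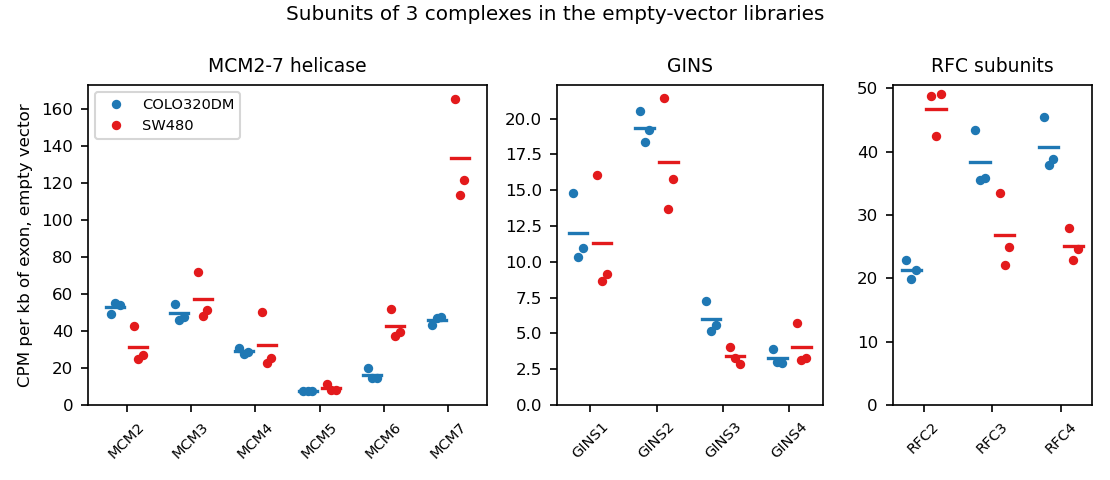
TMM-scaled CPM per kb of exon (vertical axes, each from 0) of the subunits of the MCM2 to MCM7 ring, of GINS and of 3 clamp loader subunits in the empty-vector libraries of COLO320DM (blue) and SW480 (red); points are the 3 libraries and bars their means. MCM7 and MCM6 are higher and MCM2 lower in SW480, and RFC2 lies on the opposite side from RFC3 and RFC4.

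Of the 6 helicase activation genes GINS3 alone was called without the block and 4 were called with it. GINS3 stood at 37.2, 26.4 and 28.7 CPM in the COLO320DM libraries and at 20.7, 16.6 and 14.7 CPM in those of SW480, 1.78-fold lower with a log2 difference of -0.83 (SE 0.17, adjusted p = 0.000789). GINS1, GINS2, GINS4, CDC45 and MCM10 were not called without the block (−0.19 to 0.47). With the block GINS2 was called lower in SW480, at -0.21 (SE 0.08, adjusted p = 0.0352). GINS4 was called higher, at 0.26 (SE 0.11, adjusted p = 0.0406), and so was MCM10, at 0.43 (SE 0.13, adjusted p = 0.0107).

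The clamp loader was split as well. RFC2 stood at 50.6, 43.9 and 47.1 CPM in the COLO320DM libraries and at 107.8, 93.7 and 108.6 CPM in those of SW480, 2.19-fold higher with 1.13 (SE 0.09, adjusted p = 1.75e-07). RFC4 had 136.1, 113.5 and 116.2 CPM and 83.5, 68.4 and 73.7 CPM, 1.62-fold lower with -0.70 (SE 0.11, adjusted p = 5.52e-05), and RFC3 was called lower too (−0.51). LIG1, the ligase that seals Okazaki fragments, had 30.7, 35 and 34.9 CPM and 93, 55.1 and 59.3 CPM, 2.06-fold higher with 1.04 (SE 0.19, adjusted p = 0.000225). The libraries of the lines do not overlap for RFC2, RFC4 and LIG1. PCNA, with 187.8, 137 and 140.9 CPM in COLO320DM and the SW480 values given above, was called higher (0.64). POLD1 was called higher too (0.74), and POLE (−0.69) and the nuclease DNA2 (−0.42) lower, so that the catalytic subunits of polymerases δ and ε differed in opposite directions. POLA1, PRIM1 and FEN1 were not called.

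In the other roles, FAM111B had the largest difference of the 41 genes. It stood at 1.862, 1.787 and 1.574 CPM in the COLO320DM libraries and at 55.4, 21 and 25.4 CPM in those of SW480, 19.4-fold higher with 4.28 (SE 0.38, adjusted p = 2.89e-07). SLBP had 113.6, 99.2 and 108.3 CPM and 75.6, 35.5 and 40.6 CPM, 2.12-fold lower with -1.08 (SE 0.24, adjusted p = 0.00118). CHAF1B was called higher (0.60) and CHAF1A was not called. Of the nucleotide supply genes RRM2 (0.57) and TYMS (0.45) were called higher, and RRM1, TK1 and UNG were not called without the block. RRM1, among the highest genes per kb in both lines, had 246.4, 214.3 and 214.2 CPM and 209.4, 189.2 and 200.2 CPM (−0.17, adjusted p = 0.109): each SW480 library lay below each COLO320DM library. RRM1 passed the test with the block, at -0.17 (SE 0.06, adjusted p = 0.0274).

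Of the G1/S control genes CDK2 and its cyclin CCNE1 were called lower and E2F1 and E2F2 higher in SW480. CDK2 stood at 107, 108 and 110.6 CPM in the COLO320DM libraries and at 58, 49 and 49.3 CPM in those of SW480, 2.08-fold lower with -1.06 (SE 0.09, adjusted p = 1.83e-07). CCNE1 had 8.531, 7.913 and 7.545 CPM and 6.539, 4.441 and 4.882 CPM, lower with -0.60 (SE 0.17, adjusted p = 0.0075). E2F2 had 14.2, 14.1 and 14.7 CPM and 22.5, 17.1 and 17.5 CPM, higher with 0.40 (SE 0.13, adjusted p = 0.0141), and E2F1 was higher by 0.41 on the log2 scale. The libraries of the lines do not overlap for these genes. CCNE2, with 13.6, 8.699 and 7.869 CPM and 14.1, 7.519 and 7.432 CPM, was not called.

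**Figure D5:**
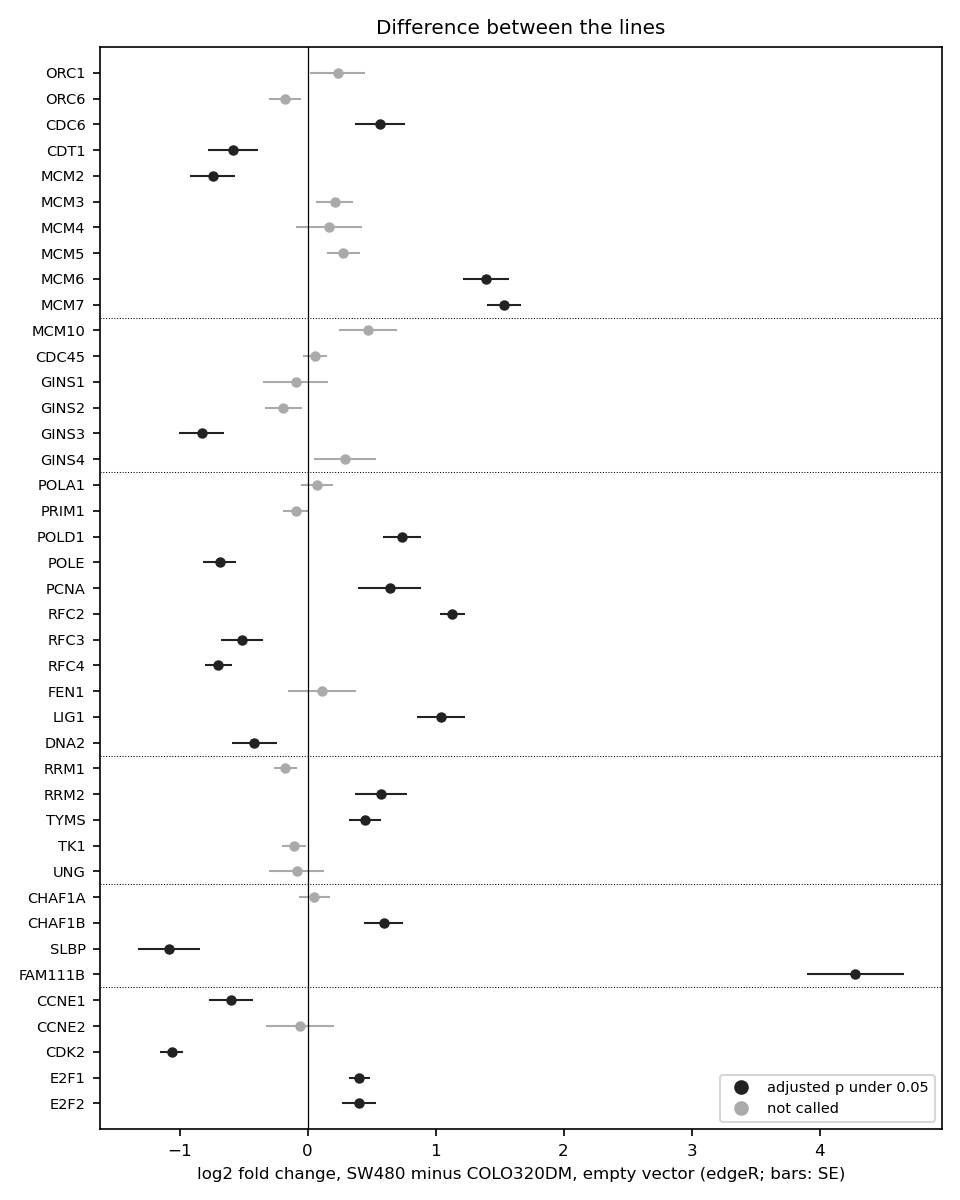
Log2 fold change of SW480 over COLO320DM with empty vector (horizontal axis; points, with the SE as bars) for the 41 genes (vertical axis, dotted lines between roles); black points have an edgeR adjusted p under 0.05. FAM111B stands at 4.28, and called genes lie on both sides of 0 in the MCM ring and in the clamp loader.

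Other genes of the pathway were read from a list of 48 further replication and G1/S genes. None of them was called with the plasmid in either line by edgeR without or with the block. In SW480 37 of the 48 had values above 0, with a median of 0.074, and none had an unadjusted p under 0.05 without the block and 13 with it (9.96% of all genes had one with it). In COLO320DM 22 of the 48 had values above 0, with a median of −0.005, and none and 1 had such a p. The mitosis list gave none called of 30 in either line and fit. Without the block 27 were above 0 with a median of 0.075 in SW480, and 22 with 0.029 in COLO320DM. In SW480 none of the 30 had an unadjusted p under 0.05 without the block and 10 had one with it, against the same 9.96% of all genes. In COLO320DM none had one in either fit. Between the lines 27 of the 48 were called (56.2%), 18 higher and 9 lower in SW480, and 12 of the 30 mitosis genes (40%), 4 higher and 8 lower. Both shares lay below the 71.6% of all genes called (37.3% higher and 34.3% lower). With the block 33 of the 48 and 20 of the 30 were called, against 76.3% of all genes. DBF4, the regulatory subunit of the kinase that fires licensed origins, stood at 48.5, 37.2 and 38.8 CPM in the COLO320DM libraries and at 130.4, 122.3 and 135.2 CPM in those of SW480, with a log2 difference of 1.64 (SE 0.12, adjusted p = 4.41e-08). The ORC subunit ORC5 had 28.4, 21.9 and 25.1 CPM and 64.3, 77.6 and 81.2 CPM (1.57, SE 0.13, adjusted p = 2.01e-07). RFC1, the large subunit of the clamp loader, had 209.3, 200 and 193.2 CPM and 102.4, 94.8 and 92 CPM (−1.06, SE 0.08, adjusted p = 5.27e-08). RB1, the E2F-binding tumour suppressor, had 170.3, 149.9 and 144 CPM and 83.6, 83.3 and 86.6 CPM (−0.87, SE 0.09, adjusted p = 1.59e-06). The libraries of the lines do not overlap for these 4 genes, and the clamp loader's RFC1 lies on the side of RFC3 and RFC4.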

How the data were processed

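The authors deposited raw counts per gene for the 12 libraries, with the exon length of each gene, and no count was changed here. Per the submitters' processing notes, HISAT2 2.1.0, limma and the build GRCh38 were used; the counter, annotation release and strand setting are not given in the sources used here. Per the labels' protocols, poly-A RNA with an integrity number above 8 was reverse transcribed with random primers. After filterByExpr (count of at least 10, total of at least 15), 1 edgeR 4.0.16 model (R 4.3.3) of 4 group means with TMM factors was fitted, and its quasi-likelihood F tests were adjusted by Benjamini-Hochberg over all genes and called under 0.05. CPM are scaled by TMM; pair ratios and library deviations add 0.1 CPM; SE is the fold change over the square root of F. The script was tested on simulated data. DESeq2 1.42.0, limma-voom (limma 3.58.1), median-ratio size factors, no count filter and left-out libraries were alternatives. The biological coefficient of variation was 0.157 (0.0596 with the block). At each member's lowest count, counting error (1 over the square root of the count) was below 0.157 for all 41 and above 0.0596 for 3: FAM111B (0.121 at 68 counts), CCNE1 (0.0783 at 163) and CCNE2 (0.0602 at 276).

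The labels number replicates 1 to 3 in every group. Libraries of equal number, each taken as its deviation from its group mean, correlated at 0.4, 0.13 and 0.12 (COLO320DM) and at 0.72, 0.44 and 0.31 (SW480). For the plasmid comparisons and their difference, the result with a replicate block inside each line is therefore printed for members whose call it changes. Across numbers within a line, replicates 2 and 3 correlated about as much (0.15 and 0.16, 0.37 and 0.47), so the pairing mostly separates replicate 1, and pairs 2 and 3 may not be independent. For the comparison of the lines, the block was an effect of each replicate number shared by both lines. Whether equal numbers match across the lines was not checked. The median log2 shift of the members in replicate 1 was 0.384 in SW480 and 0.167 in COLO320DM. The members, gene lists and tests were chosen with earlier results of these data known. Every library's value is given for members called in a plasmid comparison in either fit, the 5 called members with the largest line difference in each direction, the 3 highest and 3 lowest per kb in each line, and, where fewer than 5 were called, the 5 of smallest blocked p. Promoter sequences are from RefSeq (GRCh38.p14).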

Additional observations from a re-analysis of the deposited data

How the results depend on the processing

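Between the lines 18 to 30 members were called over the 11 alternatives, with a median of −0.084 to 0.209. Of the 23 called members 16 kept call and direction in all 11, as did DBF4, ORC5, RFC1 and RB1. CDC6, PCNA and RRM2 lost the call without replicate 2 or 3 of COLO320DM, without replicate 1 of SW480 or with no count filter (adjusted p of 0.0561 to 0.0876, 0.103 to 0.203 and 0.0736 to 0.0936). CDT1 lost it without COLO320DM replicate 2 or 3 or SW480 replicate 2 (0.0573 to 0.0828), RFC3 without COLO320DM replicate 1 or SW480 replicate 2 (0.0571 and 0.052), and E2F2 without SW480 replicate 1 (0.06). DNA2 lost it without COLO320DM replicate 1 or 2 or SW480 replicate 2 or 3, or with median-ratio size factors (0.0544 to 0.204). Of the 18 others, 7 were called with the block, 4 of these 7 also in another setting (ORC6 and GINS2 without SW480 replicate 1, MCM10 and MCM5 without SW480 replicate 2 or 3, MCM5 also with DESeq2 or size factors), UNG without SW480 replicate 1 (0.0163), and 9 changed sign in some setting. The SW480 plasmid calls exist with the replicate block and not without it: 6 members with the block, 6 with the block on the 6 SW480 libraries, 5 with DESeq2 and 3 with limma-voom (the last 3 fits were chosen after seeing the data), and 0 to 11 when a pair was left out of the block fit. Without the block no left-out library gave a call (0 to 0), but the median moved from 0.008 (without plasmid replicate 1) to 0.317 (without empty-vector replicate 1). Without plasmid replicate 1, MCM4 (−0.033), GINS1 (−0.03), PCNA (−0.035) and FAM111B (−0.084) were below 0, since 1 arm then lacks its high library; without empty-vector replicate 1 they were at 0.653, 0.59, 0.544 and 0.798. In COLO320DM the median ranged from −0.021 to 0.093 over left-out libraries and was 0.032 with the block without pair 1; over left-out libraries RRM2 ranged from −0.008 (without plasmid replicate 1) to 0.25 and CDT1 from −0.139 (without empty-vector replicate 1) to 0.232. The median difference between the lines' plasmid effects ranged from −0.022 to 0.244, and 1 member was called with the block without SW480 pair 1. The replicate block changed no call in COLO320DM or in the difference between the lines' effects with all pairs. With 3 libraries a group and no block, the smallest adjusted p of the members with the plasmid was 1.0 in each line.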

Other observations

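The genomic position of the members that differed between the lines was looked at after their values were seen. MCM7 and RFC2, which are 2 of the 5 members with the largest differences in favour of SW480, and DBF4 and ORC5, the pathway genes with the largest such differences, all lie on chromosome 7. Over the 1197 tested genes of chromosome 7 the median log2 difference of SW480 over COLO320DM was 0.846, the highest of the 23 chromosomes, and 76.2% were higher in SW480. The other pathway genes there, POLD2 (0.86) and RPA3 (0.13, not called), were at and below that median. Chromosome 21 (CHAF1B) followed at 0.779 and chromosome 20 (GINS1, PCNA and E2F1) at 0.644. At the other end stood chromosome 13 (RFC3, and RB1 of the longer list) at −0.662 and chromosome 4 (SLBP, and RFC1 of the longer list) at −0.613. Chromosome 16, with GINS3, CDT1, GINS2 and ORC6, had −0.353. FAM111B (4.28) and MCM6 (1.40) exceeded their chromosomes' medians of 0.444 (chromosome 11) and 0.065 (chromosome 2), and GINS1 (−0.09) lay below that of chromosome 20. CDK2 (−1.06) lay below the median of its chromosome 12 (−0.187), MCM2 (−0.74) and RFC4 (−0.70) below that of chromosome 3 (−0.23), LIG1 (1.04) above that of chromosome 19 (0.375), and CCNE1 (−0.60), also on chromosome 19, on the other side of 0 from it.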
